A study of Mus musculus with 6 samples.

Results

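The Janus kinases and the receptors of the gp130 family were taken from bulk RNA sequencing of hematopoietic stem cells (HSCs) as 10 genes named by symbol out of the 26264 genes in the table of normalized counts. They comprise the 4 kinases *Jak1*, *Jak2*, *Jak3*, and *Tyk2*, the shared receptor chain gp130 (*Il6st*), and 5 chains that bind particular ligands (*Il6ra*, *Lifr*, *Osmr*, *Il11ra1*, and *Il27ra*). They are identified by symbol alone, and all 10 passed the filter on low values. HSCs (LSK CD150+ CD48-) were sorted from 8-week-old female mice, 3 of them wild-type C57Bl/6 (WT) and 3 whole-body *Irf1* knockouts of the strain B6.129S2-*Irf1* tm1Mak/J (*Irf1-/-*), with 1 library per mouse. Because the knockout is present in every tissue, differences in the HSCs cannot be told apart from those set by the surrounding *Irf1-/-* marrow. The comparison asks which transcripts differ between HSCs with and without IRF1, a transcription factor that interferons induce and that itself binds promoters of interferon-responsive genes.

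Cytokine receptors of this class have no kinase of their own. Janus kinases sit on the inner part of the receptor chains, and when a cytokine brings the chains together they phosphorylate each other and the receptor, which then recruits STAT transcription factors. gp130 is shared by interleukin-6, interleukin-11, leukemia inhibitory factor, oncostatin M, and interleukin-27, each of which needs a further chain for recognition, and it signals mainly through STAT3 with JAK1, JAK2, and TYK2. JAK3 pairs with the common γ chain (*Il2rg*) instead.

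Reads on genes numbered 43138521, 57281017, and 45129929 in *Irf1-/-* replicates 2, 3, and 4 and 59658080, 45332573, and 43267486 in WT replicates 2, 3, and 4. These totals were recovered from the deposited values. The libraries did not divide by genotype along the first principal component (32.4% of the variance), which set *Irf1-/-* replicates 2 and 4 and WT replicate 4 apart from the remaining 3. Along the second (24.8%) all 3 *Irf1-/-* libraries lay on one side (5.72, 57.6, and 16.2) and all 3 WT libraries on the other (−37.7, −14.8, and −27.0). The targeted gene *Irf1* had normalized counts of 9267, 9524, and 9287 in *Irf1-/-* and 10122, 11119.6, and 12057 in WT HSCs. All 3 *Irf1-/-* values were below all 3 WT values (log2 fold change −0.24, SE 0.088, limma adjusted *P* = 0.170). A total over the gene does not check the disrupted part of it, so the genotypes rest on the labels.

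Markers of HSCs were present at high levels in every library, led by *Kit* at 77902 to 88715 normalized counts. Of the 9 HSC markers, *Fgd5* was called higher in *Irf1-/-* HSCs and none lower. *Procr* (log2 fold change 0.52, limma adjusted *P* = 0.0112) and *Ly6a* (−0.43, limma adjusted *P* = 0.0245) passed on adjusted *P* but not on the fold. *Slamf1*, *Mecom*, and *Mllt3* were higher without overlap but not called (log2 fold changes 0.24, 0.30, and 0.32, limma adjusted *P* = 0.217, 0.101, and 0.108). *Kit*, *Hlf*, and *Hoxb5* overlapped between the genotypes. Of all tested genes, 19.9% had groups that did not overlap. Markers of mature cells varied. *Cd3e* was at no more than 7.89 and *Cd8a* at no more than 2.59 normalized counts, and *Hba-a1* and *Hbb-bt* were listed at 0 in all 6 libraries. Others were well above 0 in both genotypes, such as *Cd79b* (2521 to 2952), *Nkg7* (2174 to 3209), *Itgam* (658 to 2228), *Klrb1c* (394 to 837), and *Cd4* (117 to 340.5). Of the 9 granulocyte and monocyte markers, 3 were far higher in WT replicate 4 than in the other libraries, namely *S100a8* (1033 in WT replicate 4 and 13.5 to 110.04 elsewhere), *S100a9* (1246 and 10.1 to 131), and *Ly6g* (46.3 in WT replicate 4, 1.07 in *Irf1-/-* replicate 2, and 0 in the remaining libraries). The remaining 6 had their highest value elsewhere, *Elane*, *Mpo*, *Prtn3*, and *Itgam* in *Irf1-/-* replicate 4 and *Csf1r* and *Ly6c2* in WT replicate 3. None of the 8 granulocyte and monocyte markers tested was called, and their summed level, most of it *Prtn3*, was 10019, 9920.2, and 12897 in *Irf1-/-* and 7427, 8013, and 10930.0 in WT libraries. *Prtn3* itself passed on adjusted *P* but not on the fold (log2 fold change 0.53, SE 0.12, limma adjusted *P* = 0.0334). Of the 5 megakaryocyte markers tested, *Pf4* and *Gp1bb* were called lower, and *Itga2b*, *Gp9*, and *Ppbp* were not called (limma adjusted *P* = 0.0922, 0.391, and 0.802). Their summed level, mostly *Itga2b*, was 40363, 24765, and 35754 in *Irf1-/-* against 47319, 60305, and 45164 in WT HSCs. *Klf1* was called lower among the 3 erythroid markers tested, where the list summed to 960.5, 843, and 1012 against 1486, 1805, and 1269. No marker was called among the 4 B cell, 5 T and NK cell, 5 endothelial, and 6 stromal markers tested. The endothelial list, led by *Tek*, nevertheless summed to 17399, 16628, and 18465 in *Irf1-/-* against 14089.9, 13859, and 13606 in WT libraries, which did not overlap, and *Emcn* passed on adjusted *P* but fell just short on the fold (log2 fold change 0.58, SE 0.11, limma adjusted *P* = 0.0101). The stromal list, led by *Pdgfrb*, summed to 3682, 2962, and 3737 against 2129, 2767, and 2587 and did not overlap either. B cell markers (mostly *Cd79b*) summed to 2642 to 3077 and T and NK cell markers (mostly *Nkg7*) to 2902 to 3869 over the 6 libraries. Both sums overlapped between the genotypes. *Nkg7* itself did not, with 2389, 2174, and 2622 in *Irf1-/-* against 3209, 2895, and 2992 in WT libraries (log2 fold change −0.34, SE 0.10, limma adjusted *P* = 0.0894). What part these differences have in the values of the kinases and receptors was not tested. In bulk samples fewer cells of a type and less RNA per cell cannot be told apart.

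None of the 10 genes passed the test for a difference between the genotypes. A gene was called when limma gave an adjusted *P* under 0.05 over the 17404 genes whose normalized counts averaged 10 or more and an absolute log2 fold change above 0.58. By that rule limma called 1.91% of all tested genes (0.96% higher and 0.954% lower in *Irf1-/-* HSCs) and 0 of the 10. None was called with edgeR or DESeq2 on the recovered reads either, though DESeq2 gave *Osmr* no adjusted *P*. At an unadjusted *P* under 0.05, 3 of the 10 passed in limma (*Jak3*, *Il6st*, and *Lifr*), against 2863 of all 17404 tested genes. The 3 *Irf1-/-* values lay entirely on one side of the 3 WT values for 4 of the 10, with *Jak1*, *Jak3*, and *Il6st* higher and *Lifr* lower, where 19.9% of all tested genes had groups that did not overlap. The median log2 fold change of the 10 was 0.11, beside −0.0028 over all tested genes. For 8 of the 10 the 95% interval of the log2 fold change lay within 0.58 of 0 on both sides, so that a change of the size asked for by the call lies outside it, and the exceptions were *Lifr* and *Osmr*, the 2 genes with the fewest reads.

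Among the kinases, *Jak3* stood out by its spread between genotypes. JAK3 is used by receptors that contain the common γ chain. *Jak3* had normalized counts of 20121, 22759.5, and 21496 in *Irf1-/-* and 17950.2, 17995, and 16771 in WT HSCs. The lowest *Irf1-/-* library exceeded the highest WT library, and the means were 21459 ± 1319 and 17572 ± 694 (SD, *n* = 3 each). The log2 fold change was 0.29 (SE 0.085, 95% interval 0.10 to 0.47) and the adjusted *P* in limma was 0.0916. Over the alternatives tried its adjusted *P* ranged from 0.0042 to 0.327 in limma, edgeR, and DESeq2.

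*Jak1*, which serves gp130 as well as the interferon receptors, had the highest counts of the 10 genes. Its values were 34702, 39818, and 36957 in *Irf1-/-* and 32373, 34601, and 32283 in WT HSCs. The genotypes did not overlap, but *Irf1-/-* replicate 2 was above WT replicate 3 by a small margin only. The log2 fold change was 0.17 (SE 0.089, 95% interval −0.026 to 0.36, limma adjusted *P* = 0.400). After quantile normalization it was 0.27 (limma adjusted *P* = 0.0143), which passed on adjusted *P* but not on the fold.

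*Jak2*, the kinase of the erythropoietin receptor among others, was at 8660.5, 8054, and 7807 in *Irf1-/-* and 8553, 8645, and 7503 in WT HSCs. The values were interleaved, and the log2 fold change of −0.0089 (SE 0.089, 95% interval −0.20 to 0.18, limma adjusted *P* = 0.980) took the other sign after quantile normalization, with a term for the split of the libraries on the first principal component, and without any 1 of *Irf1-/-* replicates 3 and 4 and WT replicates 2 and 3 (0.0010 to 0.028). *Tyk2*, which serves interferon and interleukin-12 receptors, had 6779, 7457, and 7079 normalized counts in *Irf1-/-* and 6697, 7232, and 5961 in WT HSCs. The ranges overlapped, and the log2 fold change was 0.10 (SE 0.093, 95% interval −0.096 to 0.30, limma adjusted *P* = 0.665). Leaving out WT replicate 4 gave 0.029, leaving out WT replicate 3 gave 0.17, and leaving out *Irf1-/-* replicate 3 gave 0.068.

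The mix of kinases was compared as the share of each in their summed level per kilobase of exon, in which a scaling factor of the library cancels. *Jak3* took 32.0%, 32.7%, and 32.8% in *Irf1-/-* and 30.5%, 29.4%, and 30.1% in WT HSCs. These shares did not overlap and differed by 2.51 percentage points (*P* = 0.1 by the exact two-sided permutation test, which cannot give less with 3 libraries against 3, and 0.45 after Benjamini-Hochberg adjustment over 9 shares and ratios). *Jak2* took 13.2 ± 1.24% in *Irf1-/-* and 15.0 ± 0.561% in WT HSCs (SD, *n* = 3 each, exact permutation *P* = 0.2, adjusted 0.45), with *Irf1-/-* replicate 2 at 14.7%, within the WT range of 14.4% to 15.5%. *Jak1* held 41.7 ± 0.805% and 41.9 ± 1.12% (exact permutation *P* = 0.9, adjusted 0.9, *n* = 3 each), and the sign of this difference turned when *Irf1-/-* replicate 2 (0.27 percentage points) or WT replicate 4 (0.40) was left out. Leaving out *Irf1-/-* replicate 3 gave −0.527, and leaving out WT replicate 2 gave −0.718. *Tyk2* held 12.5 ± 0.0532% and 13.1 ± 0.637% (exact permutation *P* = 0.4, adjusted 0.514, *n* = 3 each). The difference of −0.616 percentage points became −0.323 without WT replicate 3 and −0.955 without WT replicate 4.

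**Figure D1:**
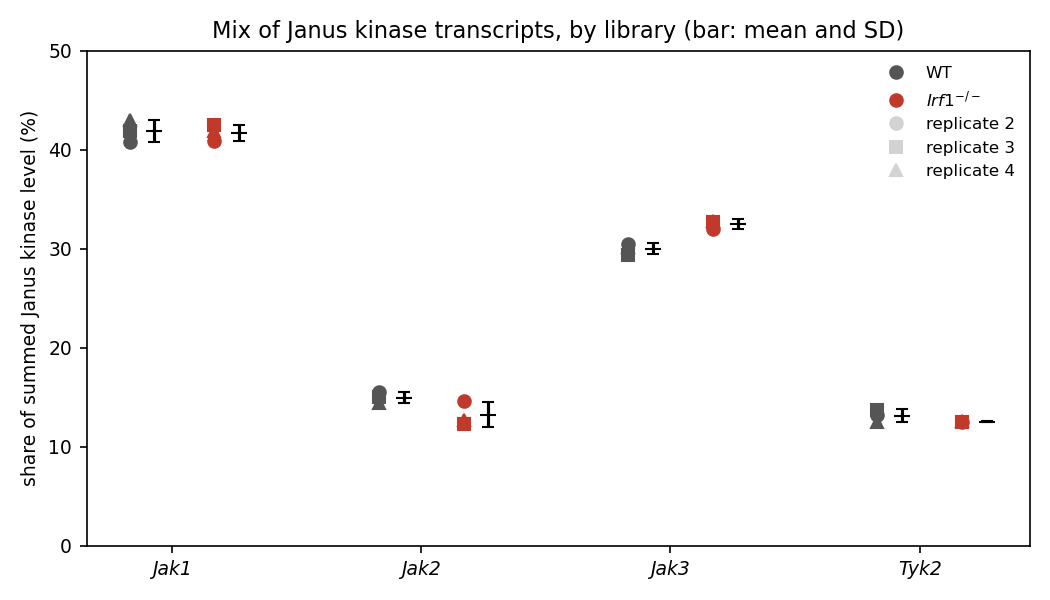
Share of each Janus kinase in the summed level of the 4 kinases per kilobase of exon (vertical axis, percent, from 0) in 3 WT and 3 *Irf1-/-* HSC libraries, with the mean and SD of each genotype as a bar. *Jak3* lies between 29.4% and 30.5% in WT and between 32.0% and 32.8% in *Irf1-/-* libraries, while the shares of *Jak1*, *Jak2*, and *Tyk2* overlap.

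The shared chain gp130 is encoded by *Il6st*. *Il6st* had normalized counts of 4981, 4722, and 4013 in *Irf1-/-* and 3901, 3950.0, and 3296 in WT HSCs. All *Irf1-/-* values were above all WT values, with *Irf1-/-* replicate 4 only slightly higher than WT replicate 3, and replicate 4 was the lowest library in both genotypes. The log2 fold change was 0.30 (SE 0.11, 95% interval 0.067 to 0.53, limma adjusted *P* = 0.168). Leaving out single libraries gave log2 fold changes from 0.21 to 0.39 and adjusted *P* values from 0.150 to 0.456 in limma. Over all alternatives the smallest adjusted *P* was 0.046.

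*Il6ra* encodes the chain that binds interleukin-6. It had 464, 364, and 555 normalized counts in *Irf1-/-* and 419.7, 401, and 413 in WT HSCs. WT libraries differed little from each other (coefficient of variation 2.28%), and *Irf1-/-* libraries lay on both sides of them (20.8%). The log2 fold change was 0.14 (SE 0.18, 95% interval −0.25 to 0.54, limma adjusted *P* = 0.787), and it was −0.0018 without *Irf1-/-* replicate 4 and 0.30 without replicate 3 of that genotype.

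*Il11ra1*, which binds interleukin-11, had 8617, 9736, and 9233 normalized counts in *Irf1-/-* and 8094, 8923, and 8443 in WT HSCs, which overlapped (log2 fold change 0.12, SE 0.086, limma adjusted *P* = 0.585, and 0.073 without *Irf1-/-* replicate 3). Its near-identical copy *Il11ra2* was listed at 0 in all 6 libraries, and how reads shared by both were assigned is not stated, so the value is uncertain to that extent. *Il27ra*, which with gp130 forms the receptor for interleukin-27, had 5808, 6133, and 6336 in *Irf1-/-* and 5709, 6371, and 4927 in WT HSCs. WT replicate 3 was the highest and WT replicate 4 the lowest of the 6 (log2 fold change 0.11, SE 0.10, limma adjusted *P* = 0.670). Leaving out the former gave 0.20 and the latter 0.014.

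*Lifr* and *Osmr*, which pair with gp130 for leukemia inhibitory factor and oncostatin M, were the only 2 of the 10 with fewer than 100 normalized counts in most libraries. *Lifr* had 45.8, 29.4, and 50.9 normalized counts in *Irf1-/-* and 58.4, 80.0, and 145 in WT HSCs. The highest *Irf1-/-* library was below the lowest WT library, and the largest value was in WT replicate 4, the library with 1033 normalized counts of *S100a8*. The values rested on 43, 34, and 49 reads in *Irf1-/-* and 71, 71, and 135 reads in WT libraries. The log2 fold change was −1.08 (SE 0.43, 95% interval −2.01 to −0.16, limma adjusted *P* = 0.217), and −0.73 without WT replicate 4. Such fold changes are taken on log2(normalized count + 1), which understates the change of genes with low counts. *Osmr* had 69.3, 24.2, and 45.7 in *Irf1-/-* and 75.7, 48.5, and 67.8 in WT HSCs, where the ranges overlapped (log2 fold change −0.55, SE 0.46, 95% interval −1.53 to 0.43, limma adjusted *P* = 0.633). Leaving out *Irf1-/-* replicate 3 gave −0.16, and leaving out replicate 2 of the same genotype gave −0.90.

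The chains that bind ligand were next set against *Il6st* within each library. The log2 ratio of *Lifr* to *Il6st* per kilobase was −7.72, −8.27, and −7.26 in *Irf1-/-* and −7.03, −6.60, and −5.48 in WT HSCs. The genotypes did not overlap, and the difference of −1.38 had *P* = 0.1 in the exact two-sided permutation test (adjusted 0.45 over the same 9 comparisons). Without WT replicate 4 the difference was −0.94. For *Osmr* the log2 ratios averaged −6.60 ± 0.74 and −5.75 ± 0.40 in *Irf1-/-* and WT HSCs (SD, *n* = 3 each, exact permutation *P* = 0.2, adjusted 0.45), a difference of −0.85 that became −0.43 without *Irf1-/-* replicate 3. For *Il6ra* they averaged −2.68 ± 0.43 and −2.53 ± 0.16 (exact permutation *P* = 0.6, adjusted 0.675, *n* = 3 each), a difference of −0.15 that turned to 0.031 without *Irf1-/-* replicate 3. Leaving out replicate 4 of *Irf1-/-* gave −0.39, and leaving out replicate 4 of WT gave −0.068. *Il11ra1* and *Il27ra* exceeded *Il6st* in every library, with log2 ratios of 1.01 to 1.58 and 1.18 to 1.65, and differed between genotypes by −0.18 (exact permutation *P* = 0.4, adjusted 0.514) and −0.19 (exact permutation *P* = 0.3, adjusted 0.514). The difference for *Il11ra1* was −0.072 without *Irf1-/-* replicate 2, −0.10 without WT replicate 4, and −0.28 without *Irf1-/-* replicate 4. That for *Il27ra* became −0.088 when *Irf1-/-* replicate 2 was left out and −0.31 when replicate 4 of the same genotype was.

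Levels of different genes can be compared per kilobase of exon only. Lengths came from merged exons of GENCODE vM1 by symbol, which is not the annotation behind the counts, so the order is approximate. In WT HSCs *Jak1* was at 4578 ± 182 and *Jak3* at 3279 ± 129.6 normalized counts per kilobase (SD, *n* = 3 each), above 96.3% and 94.2% of the 14533 tested genes with a length in the mean over all libraries. *Il27ra* (2122 ± 271) and *Il11ra1* (1898 ± 93.1) followed and overlapped each other in both genotypes, but the place of *Il11ra1* depends on its length. With the longest protein-coding transcript as the length it was at 4224 per kilobase in WT HSCs, near *Jak3* (4232) and above *Il27ra* (2134), and its ratio to *Il6st* rises in the same proportion. *Jak2* (1637 ± 126) and *Tyk2* (1438 ± 138) overlapped as well. *Il6st* was at 714 ± 70.0 and *Il6ra* at 123 ± 2.80, a 5.80-fold step in which no library overlapped. *Osmr* (13.2 ± 2.90) and *Lifr* (9.15 ± 4.37) were lowest and overlapped in WT but not in *Irf1-/-* HSCs, and *Lifr* was above only 7.78% of the ranked genes. Transcripts of the interleukin-11 and interleukin-27 chains were more abundant per length than that of gp130, and transcripts of the chains for interleukin-6, leukemia inhibitory factor, and oncostatin M less abundant.

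The other genes of the pathway were taken from lists of ligands, further receptor chains, STAT factors, inhibitors, adaptors, shedding factors, and targets, 111 genes of which 102 were tested. Of these 102, limma called 7 higher and 2 lower in *Irf1-/-* HSCs, against 0.96% and 0.954% of all tested genes. Groups did not overlap for 43 of them (35 higher and 8 lower), against 19.9% of all tested genes, and their median log2 fold change was 0.059. All 9 calls were lost in limma without a trend in the prior variance, where their adjusted *P* values were 0.0511 to 0.317. The lists were chosen with earlier results of these data known, so the shares called within them are descriptions and not tests.

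Transcripts that gp130 and STAT3 induce held 4 of the calls, all higher, among 19 tested, where 0.96% of all tested genes were called higher. *Socs3*, the inhibitor that binds gp130 and its kinases, rose from 694, 568, and 892 normalized counts in WT to 1562, 1724, and 1541 in *Irf1-/-* HSCs. The lowest *Irf1-/-* library was far above the highest WT library, and the log2 fold change was 1.19 (SE 0.15, limma adjusted *P* = 0.000737). *Egr1*, an immediate early transcription factor, rose from 2744, 3234, and 2778 to 6247, 5935, and 5471 (log2 fold change 1.01, SE 0.097, limma adjusted *P* = 3.89e-05). *Cebpd*, a transcription factor of the acute phase response, rose from 202, 180.3, and 231 to 403, 462, and 398 (log2 fold change 1.04, SE 0.20, limma adjusted *P* = 0.0105). *Bcl3*, a nuclear member of the IκB family, rose from 1822, 1757, and 1610.5 to 2484, 3419, and 3208 (log2 fold change 0.80, SE 0.12, limma adjusted *P* = 0.00251). The remaining 15 targets were not called, and 13 of the 19 had a positive and 6 a negative log2 fold change. Their median was 0.29. *Myc*, the most abundant of them by count, had a log2 fold change of 0.072 (limma adjusted *P* = 0.842). These genes respond to many other stimuli, and which receptor acts on them was not measured. The paper had already named *Socs3*, *Egr1*, *Cebpd*, and *Bcl3* as up-regulated in these libraries, so the 4 calls repeat its result.

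*Stat3*, the main factor behind gp130 and the most abundant of the STAT factors by count, had 25137, 26087, and 27032 in *Irf1-/-* and 22743, 23683, and 20116 in WT HSCs. Its groups did not overlap, but the log2 fold change of 0.24 (SE 0.090, limma adjusted *P* = 0.191) was not called.

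Among 19 inhibitors of the pathway only *Socs3* was called (1.91% of all tested genes were), with 10 positive and 9 negative log2 fold changes and a median of 0.009. *Ptpn6*, a phosphatase that removes phosphate from Janus kinases and their receptors and the most abundant of the list by count, had a log2 fold change of 0.068 (limma adjusted *P* = 0.791). Groups did not overlap for 8 of the 19 (6 higher and 2 lower), against 19.9% of all tested genes.

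Adaptors and kinases that lead from gp130 to the MAPK and PI3K branches gave no call among 19. *Gab1*, a docking protein of these branches, came closest, with 4090.4, 3432, and 3835 normalized counts in *Irf1-/-* and 2765, 2462, and 2566 in WT HSCs. Its log2 fold change of 0.54 (SE 0.099, limma adjusted *P* = 0.00878) passed the threshold on *P* but not on the fold. *Akt1*, the most abundant by count, had a log2 fold change of −0.019 (limma adjusted *P* = 0.955).

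Of 12 ligands of the family 8 were tested, with no call. *Ebi3*, a subunit of interleukin-27 and the most abundant by count, had 1973, 2311, and 2650.3 normalized counts in *Irf1-/-* and 1795, 2014, and 1886 in WT HSCs (log2 fold change 0.28, SE 0.12, limma adjusted *P* = 0.257). *Il27*, the other subunit, showed the largest difference, with 109, 86.4, and 117 in *Irf1-/-* and 134, 152, and 168 in WT HSCs (log2 fold change −0.54, SE 0.28, limma adjusted *P* = 0.370). *Il6* itself was at 6.05 to 24.5 normalized counts over the 6 libraries. Among the 5 genes of receptor shedding none was called. *Adam10*, a protease that cuts the interleukin-6 receptor from the surface, had a log2 fold change of 0.017 (limma adjusted *P* = 0.964) and was the most abundant by count, and *Rhbdf2*, which guides the related protease ADAM17, had the largest difference at 0.42 (SE 0.15, limma adjusted *P* = 0.155).

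Receptors that recruit the same kinases for other cytokines held 4 of the calls. *Il12rb1*, a TYK2-binding chain of the interleukin-12 and interleukin-23 receptors that is related to gp130, fell from 1389, 1084, and 1376 normalized counts in WT to 262, 162, and 328 in *Irf1-/-* HSCs. Every *Irf1-/-* library was far below every WT library, and the log2 fold change was −2.40 (SE 0.22, limma adjusted *P* = 2.94e-05), a 5.28-fold difference. *Il10ra*, the JAK1-binding chain of the interleukin-10 receptor, rose from 290.5, 158, and 179 to 677, 624, and 548 (log2 fold change 1.60, SE 0.23, limma adjusted *P* = 0.00155). Its partner *Il10rb*, which binds TYK2, was not called.

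Of the 11 tested receptors that bind JAK2, the β chains *Csf2rb* and *Csf2rb2* of the interleukin-3 receptor were called higher. *Csf2rb* had 3112, 2738, and 4019.5 normalized counts in *Irf1-/-* and 1908, 1501, and 2231 in WT HSCs (log2 fold change 0.81, SE 0.15, limma adjusted *P* = 0.0114), and it was not called without *Irf1-/-* replicate 4 (0.65, limma adjusted *P* = 0.0535). *Csf2rb2* had 918, 602, and 778 against 489, 312, and 500.2 (log2 fold change 0.83, SE 0.21, limma adjusted *P* = 0.0457). It was no longer called without *Irf1-/-* replicate 2 (0.69, limma adjusted *P* = 0.204) or 4 (0.81, limma adjusted *P* = 0.147) and without WT replicate 2 (0.93, limma adjusted *P* = 0.0503) or 3 (0.61, limma adjusted *P* = 0.172). Quantile normalization (0.78, limma adjusted *P* = 0.0556) and the term for the split of the libraries (0.69, limma adjusted *P* = 0.0709) ended it too. Both genes are near-identical copies between which reads could be split, so the value of each is uncertain.

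*Il2rg*, the chain that JAK3 binds, had 9564, 11428, and 9489 normalized counts in *Irf1-/-* and 9048, 8273, and 8641 in WT HSCs. The groups did not overlap, as for *Jak3*, and the log2 fold change was 0.23 (SE 0.093, limma adjusted *P* = 0.236). *Csf3r*, the receptor of granulocyte colony-stimulating factor and the closest to a call among the chains related to gp130 besides *Il12rb1*, had 7755, 8841, and 8329 in *Irf1-/-* and 6448, 5676, and 4915 in WT HSCs (log2 fold change 0.56, SE 0.10, limma adjusted *P* = 0.0102). *Il4ra*, which binds JAK1 and is also a STAT3 target, likewise passed on *P* but not on the fold (log2 fold change 0.37, SE 0.085, limma adjusted *P* = 0.0318). Of the lists by kinase, 1 of 7 tested receptors was called for JAK1, 2 of 11 for JAK2, 0 of 1 for JAK3, and 1 of 4 for TYK2, against 1.91% of all tested genes.

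**Figure D2:**
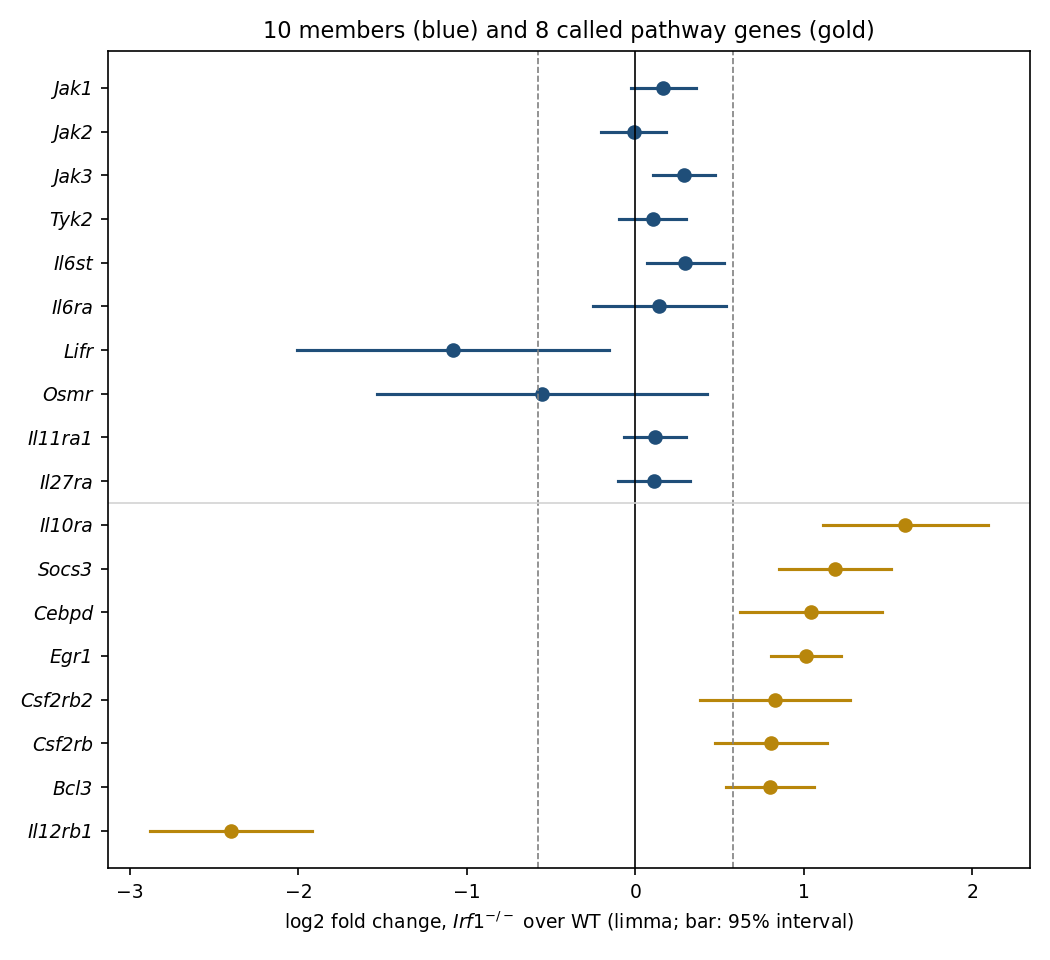
log2 fold change of *Irf1-/-* over WT HSCs (horizontal axis, limma) with its 95% interval for the 10 genes (blue) and 8 called genes of the pathway lists (gold), and dashed lines at −0.58 and 0.58. All intervals of the kinases lie between the dashed lines, whereas *Il12rb1* lies at −2.40 and *Il10ra* at 1.60.

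For likeness of pattern, the genes with the highest Pearson correlation over the 6 libraries on the log2 scale were taken from all tested genes, as a description with no test. For *Il6st* these were *Rfx5* (*r* = 0.995, Spearman ρ = 0.771), *Zbtb2* (*r* = 0.991, ρ = 0.829), and *Snx18* (*r* = 0.989, ρ = 1.00). *Snx18* had 4200.2, 3879, and 3585 normalized counts in *Irf1-/-* and 3415, 3522, and 3070.3 in WT HSCs, the same order of libraries as *Il6st*. For *Il6ra* they were *Hmgcll1* (*r* = 0.997, ρ = 1.00), *Slc9a9* (*r* = 0.983, ρ = 0.829), and *Gfod1* (*r* = 0.982, ρ = 0.943). *Hmgcll1* ranged from 2.59 normalized counts in *Irf1-/-* replicate 3 to 55.0 in *Irf1-/-* replicate 4, the same 2 libraries that held the lowest and the highest value of *Il6ra*. The points share genotype and library, and none of the 6 genes was called.

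Promoter sequences were examined because IRF1 binds DNA and because STAT factors act downstream of the kinases. RefSeq promoters (assembly GRCm38.p6, 250 bases before to 50 after the start of the gene) were found for 9 of the 10 genes, all but *Il27ra*, with 11 promoters in all. They were searched on both strands for the IRF element GAAANNGAA, which 8.56% of 32851 promoters hold, and for the STAT element TTCNNNGAA, which 8.30% hold. Of the 9 genes, *Jak3* alone held a match, an IRF element that begins 143 bases before the start. With the IRF element in 8.56% of all promoters, a lone match among 11 promoters is about what that share gives. Whether the element bears on the level of *Jak3* was not tested. The 250 bases before the start of *Jak3* (chr8:71676133-71676382, plus strand) are given with the element in capitals.
Jak3: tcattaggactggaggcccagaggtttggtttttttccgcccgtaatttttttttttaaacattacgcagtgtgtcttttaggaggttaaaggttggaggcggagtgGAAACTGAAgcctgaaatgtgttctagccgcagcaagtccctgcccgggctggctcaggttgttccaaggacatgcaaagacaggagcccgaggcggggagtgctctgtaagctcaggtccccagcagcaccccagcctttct
A match is a run of letters and not a measured binding site.

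The same search covered the called genes of the pathway and *Irf1*, of which *Socs3*, *Bcl3*, *Csf2rb2*, and *Irf1* had a promoter in the table. STAT elements were found in *Socs3*, 154 bases before the start, in *Csf2rb2*, 15 bases before, and in *Irf1*, 90 bases before, and none was found in *Bcl3* or in the second promoter of *Irf1*. The IRF element was found in none of these promoters. The stretches around them are shown with the element in capitals, for *Socs3* at chr11:117969496-117969536 (minus strand), for *Csf2rb2* at chr15:78305722-78305752 (minus strand), and for *Irf1* at chr11:53769908-53769948 (plus strand), all in GRCm38.p6.
Socs3: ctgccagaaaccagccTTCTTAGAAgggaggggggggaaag
Csf2rb2: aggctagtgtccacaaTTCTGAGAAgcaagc
Irf1: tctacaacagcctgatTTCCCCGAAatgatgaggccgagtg
*Socs3* and *Csf2rb2* were called higher, and *Irf1*, the disrupted gene, was not called.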

How the data were processed

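For each mouse the authors amplified cDNA of sorted HSCs (SMART-Seq v4), prepared a Nextera XT library without molecular identifiers, and sequenced both ends. Reads were processed on Galaxy with Trim Galore!, HISAT2 (genome mm39 in the submitters' processing notes), Htseq-count, and DESeq2. Versions, annotation, and strand setting are not given in the sources used here, so reads of antisense or overlapping genes cannot be told apart. The deposited values are a signal, obtained by dividing gene counts by 1 size factor per library. Dividing them by what 1 read is worth gave whole numbers in 100% of cases (tolerance 0.1), and these were used as recovered reads.

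Groups and replicate numbers (2, 3, and 4) came from the labels. Genotype was tested by limma 3.58.1 (R 4.3.3) on log2(value + 1), with an intensity trend and Benjamini-Hochberg adjustment over genes with a mean of at least 10. Count models served as alternatives only, since the table is normalized. Shares and ratios used exact permutation tests over libraries. Alternatives were edgeR 4.0.16 and DESeq2 1.42.0 on recovered reads, pseudocounts, filters, limma without a trend, quantile normalization and median centring, a replicate block, each library left out, the threshold, and lengths. A term for the split of the libraries, the longest transcript as the length, and the alternatives for the pathway counts and for the number of members with an adjusted *P* under 0.05 were added after seeing the data. Fits were tested on simulated data. Figures used matplotlib 3.10.9.

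The members and lists were chosen with earlier results of these data known. Named genes are the 10 members with every value, the called genes of each list or, where none was called, the gene with the largest difference and the most abundant gene, *Irf1*, and the 3 genes most correlated with *Il6st* and with *Il6ra*. Markers, *Csf3r*, *Il4ra*, *Stat3*, *Ptpn6*, *Myc*, *Il6*, and *Il10rb* were named after their values were seen. A planned search of protein motifs was not run, since no protein sequences were at hand. Some genes of the lists that the rule covers are counted but not reported here by name.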

Additional observations from a re-analysis of the deposited data

How the results depend on the processing

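None of the 10 genes was called under any alternative, though DESeq2 gave *Osmr* no adjusted *P*. Of 540 values recomputed, 497 kept their direction and their side of the threshold or moved by less than the allowed margin. That number does not measure stability. The filters, the trend, the replicate block, and adjusted *P* alone leave a log2 fold change as it was by construction. The margin for counts was wide, since 219 genes called higher with the replicate block, against 167 in the main fit, lay within it. Without a fold threshold, adjusted *P* was under 0.05 for 2 of the 10 after quantile normalization (*Jak1* 0.0143 and *Jak3* 0.0042, limma), for 1 with DESeq2 (*Jak3*), and for 1 with a term for the split of the libraries. The log2 fold change of *Jak2* turned to 0.035 with quantile normalization and 0.019 with the split term, and ranged from −0.074 to 0.028 with single libraries left out. That of *Il6ra* ranged from −0.0018 to 0.30, the difference in the share of *Jak1* from −0.718 to 0.403 percentage points, and the difference in the log2 ratio of *Il6ra* to *Il6st* from −0.39 to 0.031. Among all genes, limma without a trend called 7 higher and 33 lower (0 and 0 in the pathway lists), DESeq2 295 higher and 209 lower, and adjusted *P* alone 301 and 260. edgeR called 162 higher and 161 lower. With single libraries left out, 83 (without *Irf1-/-* replicate 4) to 304 (without WT replicate 4) passed as higher (leaving out WT replicate 3 gave 102 and *Irf1-/-* replicate 2 gave 104) and 105 (without WT replicate 3) to 265 (without WT replicate 4) lower. The cause of these shifts was not tested.

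Genotypes share replicate numbers in the labels. With the number as a replicate block, 219 genes were called higher and 196 lower, and 2 of the 10 had an adjusted *P* under 0.05 in limma (*Il6st* 0.0458 and *Jak3*), with none called. Over all alternatives the largest adjusted *P* was 0.716 for *Jak1*, 0.327 for *Jak3*, and 0.456 for *Il6st* (limma, edgeR, and DESeq2). Deviations of libraries with the same number correlated at −0.094, 0.246, and 0.147 over genes for replicates 2, 3, and 4. *Irf1-/-* replicates 3 and 4 correlated best with the WT library of their own number, and *Irf1-/-* replicate 2 with WT replicate 4 (0.251). These values do not settle whether the mice were paired, and the main fit took no pairing. At 24.2 to 145 normalized counts, *Lifr* and *Osmr* had the largest SE of the 10 genes (0.43 and 0.46), and what limits their precision was not tested.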
